A study of Mus musculus with 27 samples.

Results

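The genes described here are 38 mouse genes that act at the passage from G1 into S phase and in the copying of DNA. They were taken by name and role: origin licensing factors, helicase activators, cyclins E, E2F transcription factors, nucleotide enzymes, polymerases, the sliding clamp and its loader, and factors that finish the new strands and pack them into chromatin. Each gene was read from a probe set annotated to its symbol alone, and where a gene had several, the one with the highest mean log2 signal over the 27 arrays was used. All 38 were measured, of 19935 genes tested.

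RNA of bone marrow cells from the femurs and tibias of C57BL/6 mice aged 8 to 12 weeks was measured on one-colour Affymetrix arrays. The 9 groups held 3 biological replicates each. One group was unstimulated bone marrow. In 4 groups the cells were cultured with Flt3-L, the cytokine that drives dendritic cell development from marrow precursors, for 12 h, 24 h, 48 h or 11 days. In the other 4 groups they were cultured for the same times with Flt3-L and Cyclosporin A (CsA), a drug that blocks the phosphatase calcineurin and through it NFAT transcription factors. Flt3-L came from transfected B16 tumour cells and was used at about 200 ng/ml. CsA, at 2 µg/ml, went in 30 min ahead of Flt3-L and stayed in the culture. No group carried a genetic change. The labels do not say whether the unstimulated cells were lysed fresh or after time in culture, and none of these groups was cultured without Flt3-L, so the action of Flt3-L and that of culture cannot be told apart in a comparison with unstimulated cells. The labels give no shared donor or batch for samples of the same replicate number.

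A cell that is to divide first loads the MCM helicase ring onto its replication origins, a step called licensing that needs the origin recognition complex, Cdc6 and Cdt1. Cyclin E with its kinase then releases E2F transcription factors from the retinoblastoma protein, and E2F switches on the genes for nucleotide synthesis, the polymerases and the licensing proteins themselves. Most of these transcripts are therefore high in dividing cells and low in resting or terminally differentiated cells. Bone marrow holds many dividing precursors of red cells, granulocytes and B cells.

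Many promoters of these genes hold letters that E2F proteins are known to bind. The windows below show 250 bases before the transcription start of 6 of them, with matches to the E2F letters TTCGCGC or the letters TTGGCGC or else the letters TTCCCGC on either strand in capitals; they are RefSeq sequences of build GRCm38.p6, 5′ to 3′ on the gene's own strand. Orc1, Cdc6 and E2f8 are shown because they were among the members that fell furthest, and Mcm5 and Mcm6 as helicase subunits with several matches. Pcna is shown as the 1 member that was higher than in unstimulated cells at 11 days by the test described below, and it holds no match. The 6 were picked and do not show whether matches go with the fall. E2f2, which fell furthest by 11 days, has its match after the start, outside the printed window. Rrm2 holds no match and kept 19.0% of its unstimulated level at 11 days, where Cdc6 kept 19.5%.
Orc1 chr4:108579204-108579453 (+ strand): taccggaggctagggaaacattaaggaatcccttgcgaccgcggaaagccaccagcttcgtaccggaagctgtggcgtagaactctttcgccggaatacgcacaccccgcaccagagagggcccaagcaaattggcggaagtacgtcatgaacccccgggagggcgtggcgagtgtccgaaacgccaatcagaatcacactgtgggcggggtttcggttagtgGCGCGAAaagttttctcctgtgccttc
Cdc6 chr11:98907901-98908150 (+ strand): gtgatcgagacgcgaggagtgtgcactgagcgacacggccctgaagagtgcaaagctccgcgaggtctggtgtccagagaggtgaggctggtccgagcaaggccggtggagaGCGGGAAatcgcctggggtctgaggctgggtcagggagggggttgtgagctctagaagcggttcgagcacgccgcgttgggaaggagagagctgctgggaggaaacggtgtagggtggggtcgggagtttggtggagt
Mcm5 chr8:75109259-75109508 (+ strand): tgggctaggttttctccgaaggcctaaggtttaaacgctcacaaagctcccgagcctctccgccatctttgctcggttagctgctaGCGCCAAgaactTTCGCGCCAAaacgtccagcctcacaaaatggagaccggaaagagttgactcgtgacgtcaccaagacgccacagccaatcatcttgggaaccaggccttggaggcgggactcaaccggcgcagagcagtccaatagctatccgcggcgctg
Mcm6 chr1:128359706-128359955 (- strand): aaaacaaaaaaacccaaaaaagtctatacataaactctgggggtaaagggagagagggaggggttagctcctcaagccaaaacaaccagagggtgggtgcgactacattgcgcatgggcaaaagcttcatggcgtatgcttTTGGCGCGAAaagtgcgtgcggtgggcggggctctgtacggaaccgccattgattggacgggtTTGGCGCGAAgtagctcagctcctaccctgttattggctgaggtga
E2f8 chr7:48881597-48881846 (- strand): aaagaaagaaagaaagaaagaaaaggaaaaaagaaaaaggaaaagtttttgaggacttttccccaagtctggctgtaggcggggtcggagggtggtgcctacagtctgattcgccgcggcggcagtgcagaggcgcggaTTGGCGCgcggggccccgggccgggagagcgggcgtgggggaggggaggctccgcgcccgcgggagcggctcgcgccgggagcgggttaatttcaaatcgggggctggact
Pcna chr2:132253181-132253430 (- strand): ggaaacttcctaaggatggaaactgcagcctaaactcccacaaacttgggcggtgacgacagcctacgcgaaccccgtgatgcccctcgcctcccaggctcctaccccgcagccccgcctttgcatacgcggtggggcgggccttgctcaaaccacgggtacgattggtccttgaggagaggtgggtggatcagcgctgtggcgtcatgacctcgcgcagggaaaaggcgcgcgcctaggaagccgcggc
In Orc1 the match began at position -27 from the start, in Cdc6 at -138 and in E2f8 at -111. TTCGCGC and TTGGCGC on opposite strands can share bases, and so the 3 matches of Mcm5 form 2 stretches. In windows that also take the 50 bases after the start, 23 of the 33 members in the table (69.7%, exact 95% binomial interval 51.29 to 84.41) held at least 1 match, against 1977 of the 15612 genes tested that are in the table (12.66%). Without TTCCCGC it was 16 of the 33 members (48.48%) against 6.11% of genes. The letters TTTGAA, the CHR element found in promoters of mitotic genes, were in 6 of the 33 members (18.18%) against 17.28% of all genes, and CCAAT was in 23 of them (69.7%) against 41.69%. Members with no E2F match in this window were Mcm2, Mcm10, Cdc45, Ccne1, E2f1, Pcna, Rrm2, Tyms, Tk1 and Slbp, which says only that these letters are not there. Mcm4, Gins1, Gins2, Ccne2 and Pole are named only.

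Signals are log2 of the deposited RMA intensity, a scale on which 1 unit is 2-fold, and a level is compared only with the same gene's level in other groups. A gene is said to have risen or fallen where limma's moderated test over all 19935 genes gave a Benjamini-Hochberg adjusted p under 0.05. Median intensities of the arrays lay between 114.2 and 124.8. Over all genes, 26 of the 27 arrays correlated best with another array of their own group. The exception was the third CsA array at 12 h, which was nearest to the third array of Flt3-L alone at 12 h; it was the lowest of its group in 30 of the 38 members. Single arrays stood apart among the members elsewhere too: the third array at 11 days of Flt3-L was the highest of its group in 33 members, the third unstimulated array in 31, and the first Flt3-L array at 24 h the lowest in 26.

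Within 12 h of Flt3-L the replication genes as a group had fallen, and they stayed low for 11 days. At 12 h 37 of the 38 fell and none rose, while 18.1% of all genes fell and 17.8% rose. The median member had changed by -0.85 in log2, with a median of 0.052 over all genes. All 38 fell at 24 h, with a median of -1.10, and all 38 at 48 h, with a median of -1.07. The shares of all genes that fell at these times were 17.7% and 18.6%. At 11 days 36 had fallen, Pcna had risen and E2f1 did not pass the test, with a median of -1.61. In all, 24.8% of genes fell and 27.2% rose at 11 days. The number of members lower by 2-fold or more was 12 at 12 h, 24 at 24 h, 26 at 48 h and 32 at 11 days, against 1.11%, 2.07%, 3.03% and 7.11% of all genes. For all 38 genes every array at 12 h, 24 h and 48 h lay below every unstimulated array; 21.3%, 20.5% and 21.8% of all genes were separated in that direction, and at 12 h, 24 h and 48 h 28.7%, 25.3% and 22.4% were separated upward. The 4 comparisons share the same 3 unstimulated arrays.

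**Figure D1:**
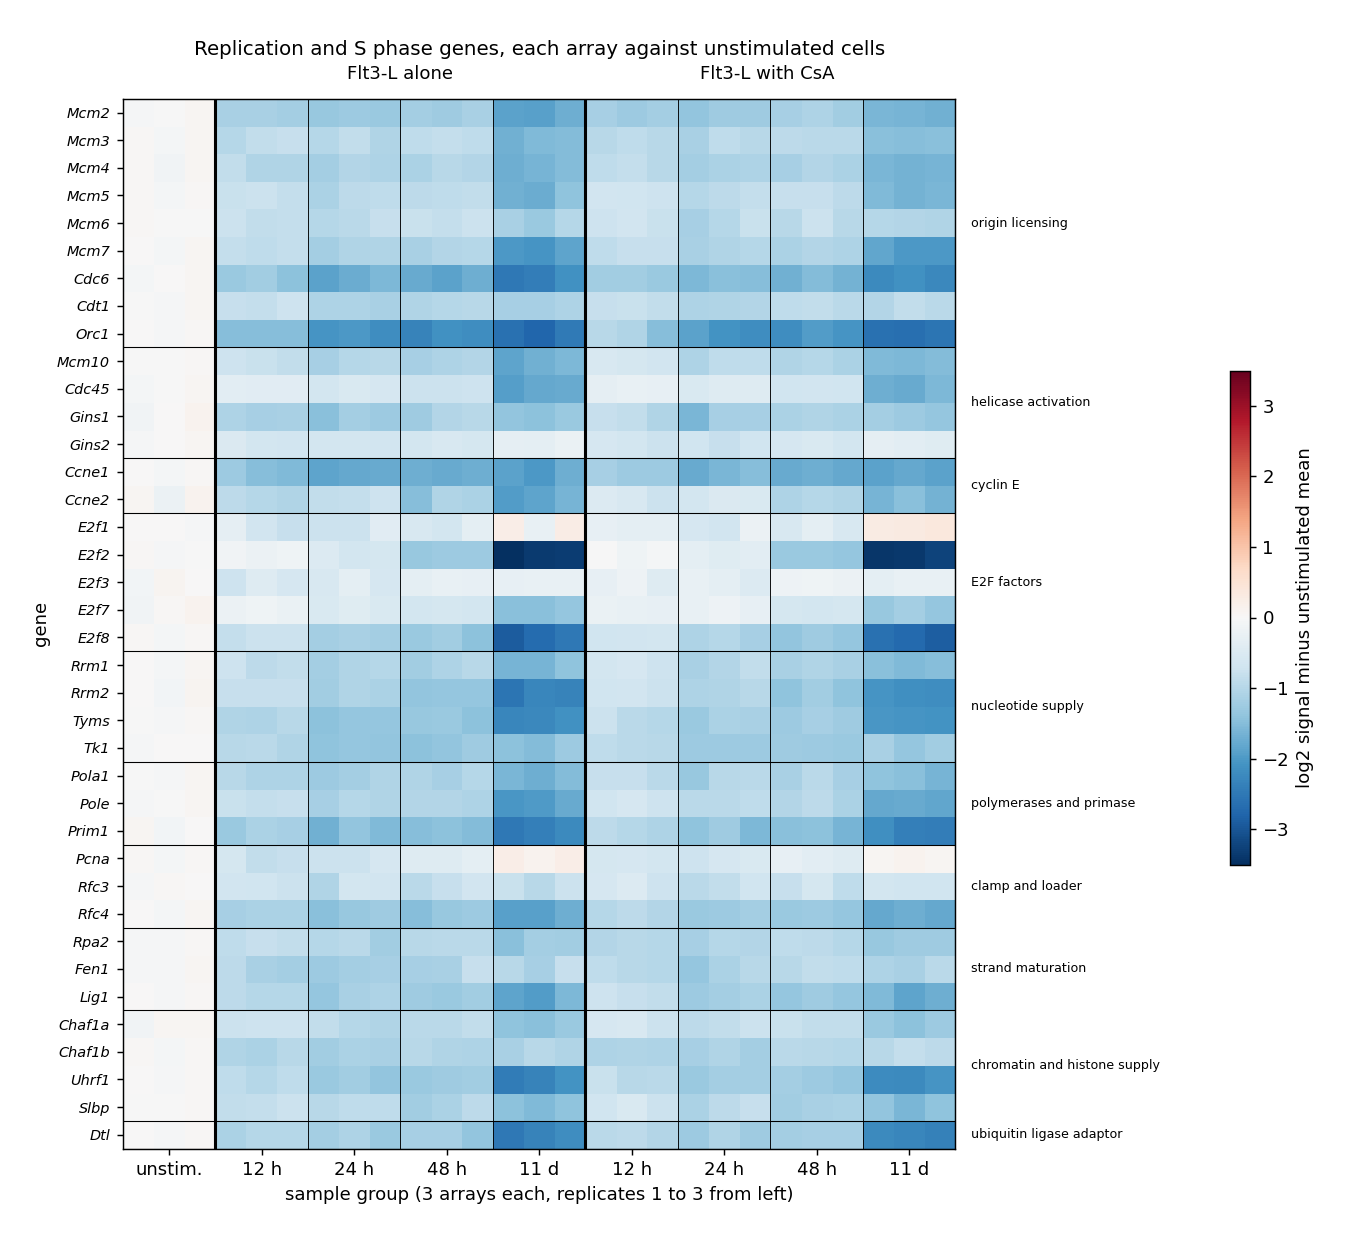
Each row is 1 of the 38 genes, ordered by role, and each column 1 of the 27 arrays; colour gives the log2 signal minus the gene's mean in the 3 unstimulated arrays (scale -3.5 to 3.5). Nearly all rows turn blue at 12 h and darken by 11 days in both arms, E2f2 darkest of all, while the Pcna and E2f1 rows are pale again at 11 days.

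Origin licensing genes all fell by 12 h, and Orc1 and Cdc6 fell furthest at each time. Orc1, the large subunit of the origin recognition complex, had log2 signals of 8.64, 8.58 and 8.67 in unstimulated cells, 7.15, 7.15 and 7.13 at 12 h, 6.57, 6.63 and 6.46 at 24 h, 6.29, 6.52 and 6.45 at 48 h and 6.01, 5.85 and 6.15 at 11 days. Every later array lay below every unstimulated one, and the arrays at 24 h lay wholly below those at 12 h. Its change was -1.48 ± 0.10 (SE, n = 3 per group) at 12 h, the largest of any member (adjusted p = 2.47e-11), and -2.63 ± 0.10 at 11 days (adjusted p = 2.37e-17), a 6.17-fold lower signal. Cdc6, which loads the helicase with Orc1, read 9.21, 9.30 and 9.34 before stimulation, 7.99, 8.06 and 7.84 at 12 h and 6.77, 6.87 and 7.15 at 11 days. It had fallen by 1.32 ± 0.09 at 12 h and by 2.36 ± 0.09 at 11 days (adjusted p = 6.28e-12 and 4.27e-18). Again the groups were far apart. Cdt1, the partner of Cdc6 in loading, dropped less: 10.11, 10.10 and 10.19 became 9.31, 9.30 and 9.41 at 12 h and 8.98, 8.96 and 9.06 at 11 days. Its change at 11 days was -1.13 ± 0.05 (adjusted p = 1.97e-16), and its level at 11 days was 45.6% of that in unstimulated cells, where Orc1 kept 16.2% and Cdc6 19.5%.

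The 6 subunits of the MCM ring, Mcm2 to Mcm7, all fell at each of the 4 times. Mcm2 went from 11.06, 11.08 and 11.16 to 9.97, 9.97 and 9.92 at 12 h, a change of -1.15 ± 0.06 (adjusted p = 3.83e-14), then to 9.23, 9.20 and 9.40 at 11 days. The 12 h arrays were tightly grouped and more than 1 log2 unit below. Mcm5 had 11.07, 10.96 and 11.07 in unstimulated cells, 10.26, 10.29 and 10.20 at 12 h and 9.35, 9.30 and 9.61 at 11 days. At 11 days the subunits had not fallen equally: Mcm7 kept 25.4% of its unstimulated level and Mcm6 44.9%. Over the 9 licensing genes the changes ran from -1.48 to -0.79 at 12 h and from -2.63 to -1.13 at 11 days.

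The helicase activators differed among themselves. Cdc45, which joins the MCM ring to form the working helicase, moved little at first: 9.48, 9.55 and 9.64 in unstimulated cells became 9.19, 9.17 and 9.16 at 12 h, 8.82, 8.80 and 8.83 at 48 h and 7.64, 7.76 and 7.79 at 11 days. The groups still did not overlap at 12 h, and the change of -0.38 passed the test (adjusted p = 3.36e-06). By 11 days it was -1.82 ± 0.05 (adjusted p = 8.01e-20). Gins2, a subunit of the GINS complex that binds Cdc45, went the other way late. Its signals were 8.92, 8.96 and 9.02 in unstimulated cells, 8.45, 8.31 and 8.29 at 12 h, 8.33, 8.39 and 8.35 at 48 h and 8.65, 8.61 and 8.72 at 11 days. The arrays at 11 days lay between the unstimulated arrays and those of the first days, and the change from unstimulated cells was -0.31 ± 0.06 (adjusted p = 3.38e-05). Gins1, of the same complex, was at -1.38 ± 0.10 at 11 days (adjusted p = 7.53e-12), and Mcm10, which helps to start the helicase, at -1.70 ± 0.07 (adjusted p = 2.71e-17).

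Both cyclins E, which drive the kinase at the G1/S boundary, fell at all 4 times. Ccne1 dropped at once from 10.61, 10.52 and 10.64 to 9.32, 9.09 and 9.05 at 12 h and 8.75, 8.80 and 8.82 at 24 h, then stayed near that level, with 8.71, 8.59 and 8.89 at 11 days. Its change was -1.44 ± 0.08 at 12 h (adjusted p = 1.43e-13) and -1.86 ± 0.08 at 11 days (adjusted p = 4.24e-17). Ccne2 came down in steps: 10.11, 9.83 and 10.17 became 9.12, 9.03 and 9.0 at 12 h, 9.17, 9.20 and 9.32 at 24 h, 8.55, 8.98 and 8.92 at 48 h and 8.09, 8.20 and 8.41 at 11 days. Its arrays at 24 h were no lower than those at 12 h. At 12 h Ccne1 had made 83.0% of its 48 h change and Ccne2 80.9%.

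The 5 E2F factors did not follow one course. E2f2, an activating E2F known for its part in maturing red cell precursors, was the member that fell least at 12 h and most at 11 days. Its signals were 10.93, 10.87 and 10.89 in unstimulated cells, 10.79, 10.69 and 10.76 at 12 h, 10.42, 10.27 and 10.28 at 24 h, 9.58, 9.63 and 9.64 at 48 h and 7.33, 7.55 and 7.58 at 11 days. Each group lay wholly below the one before it. The change at 12 h was -0.15 and missed the threshold (adjusted p = 0.0541), although the groups did not overlap; under 5 of the other settings tried it passed (adjusted p from 0.0274 to 0.0372). At 11 days the change was -3.41 ± 0.06 (adjusted p = 3.91e-24), a 10.6-fold lower signal, with 9.4% of the unstimulated level left. E2f8, a repressor E2F that acts in S phase, was second: 10.99, 10.89 and 11.00 became 10.12, 10.20 and 10.20 at 12 h, 9.65, 9.74 and 9.52 at 48 h and 8.05, 8.26 and 8.46 at 11 days. That was a change of -2.70 ± 0.08 (adjusted p = 8.9e-20). E2f7, the related repressor, fell by 0.20 at 12 h (adjusted p = 0.00654) and by 1.43 ± 0.06 at 11 days (adjusted p = 1.9e-17). Without the third unstimulated array the adjusted p of E2f7 at 12 h was 0.0665.

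E2f1, the founding activator E2F, fell early and rose again after 48 h. Unstimulated cells had 9.42, 9.44 and 9.39; the arrays at 12 h had 9.11, 8.75 and 8.61, those at 24 h 8.68, 8.68 and 9.01, those at 48 h 8.85, 8.79 and 9.09 and those at 11 days 9.66, 9.16 and 9.68. At 11 days 2 of the arrays were above all unstimulated arrays and 1 was below all of them. The change at 12 h was -0.59 ± 0.13 (adjusted p = 0.000904) and that at 11 days 0.08 ± 0.13 (adjusted p = 0.656). E2f3, another activator, fell on the brighter of its probe sets by 0.59 at 12 h and by 0.27 ± 0.08 at 11 days (adjusted p = 0.00451). Its other probe set gave -0.15 at 12 h (adjusted p = 0.0976) and 0.14 at 11 days (adjusted p = 0.0843), and the pair correlated at only 0.472 over the 27 arrays, so no direction for E2f3 rests on both.

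**Figure D2:**
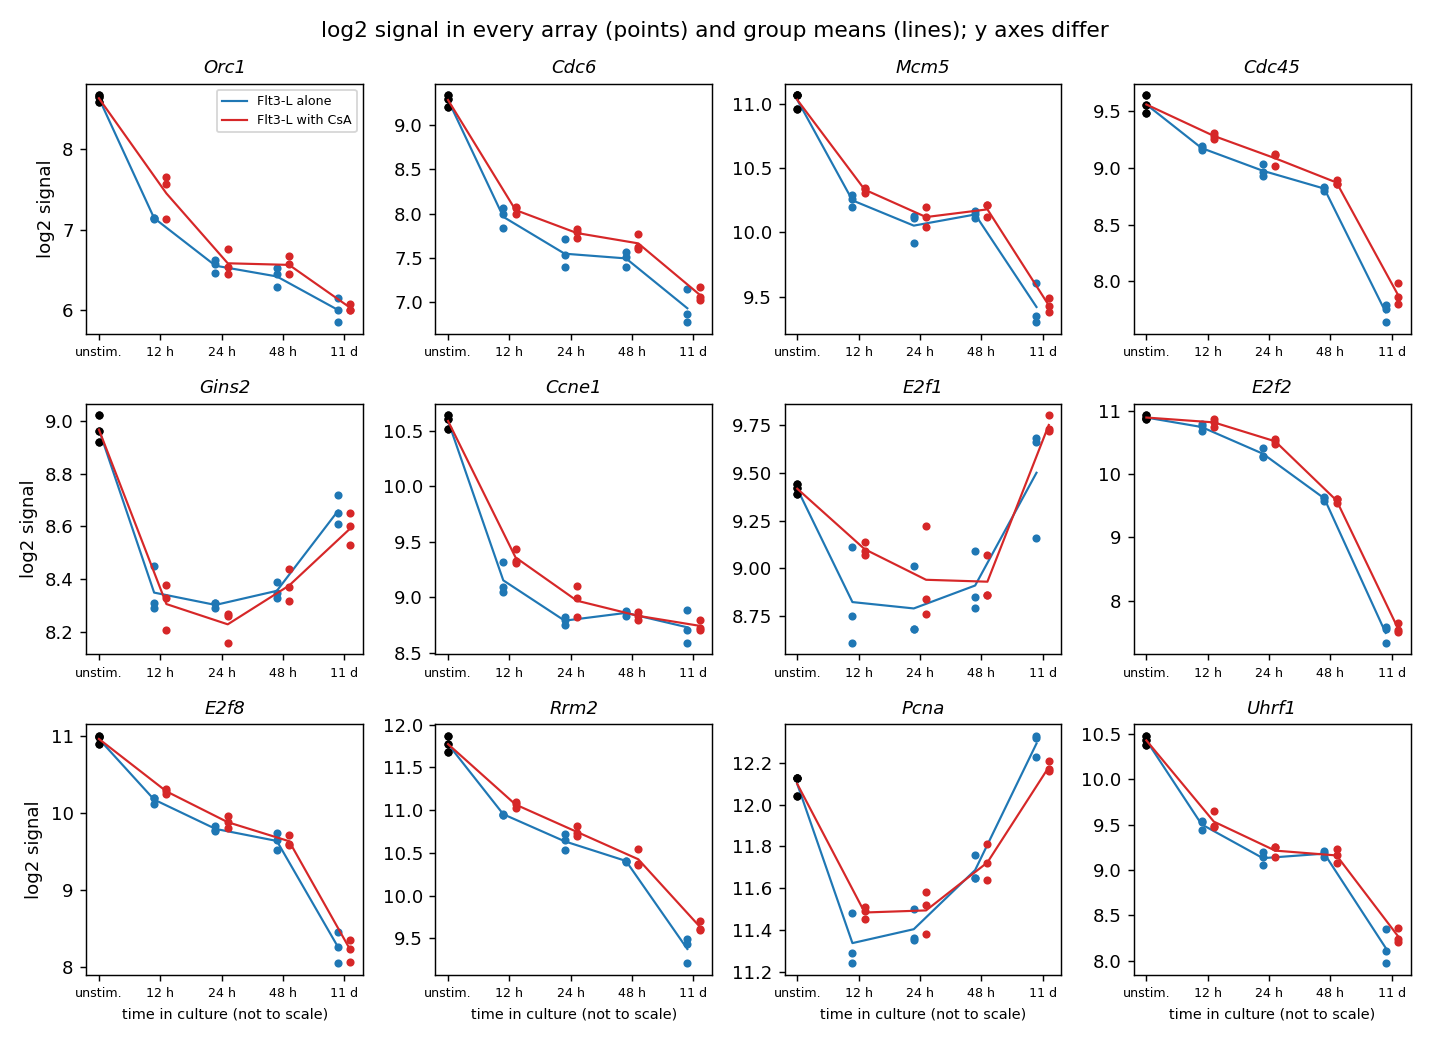
Log2 signal of 12 of the genes in each array (points) with the group mean (line) by time (axis not to scale, vertical axes differ), for Flt3-L alone in blue and with CsA in red; the black points are the unstimulated arrays, shared by both lines. Orc1, Cdc6 and Ccne1 drop steeply by 12 h, E2f2 drops mostly after 48 h, and Gins2, E2f1 and Pcna come back up by 11 days in both arms.

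Nucleotide supply fell as well. Rrm2, the regulatory subunit of ribonucleotide reductase, which makes the DNA building blocks and is the subunit that varies through the cell cycle, had 11.77, 11.68 and 11.87 in unstimulated cells, 10.95, 10.95 and 10.96 at 12 h, 10.40, 10.41 and 10.41 at 48 h and 9.21, 9.49 and 9.43 at 11 days. These groups did not overlap, each lying below the one before it, and the change at 11 days was -2.39 ± 0.07 (adjusted p = 2.96e-20). Rrm1, its catalytic partner, fell by less, to -1.55 ± 0.08 at 11 days (adjusted p = 2.56e-15). Tyms, thymidylate synthase, was at -1.38 at 24 h (adjusted p = 9.27e-15) and -2.22 ± 0.07 at 11 days (adjusted p = 7.79e-20). Tk1, the thymidine salvage kinase of S phase, had reached -1.38 at 24 h (adjusted p = 2.97e-15) and was at -1.41 ± 0.06 at 11 days (adjusted p = 2.3e-16). Its other probe set gave -1.24 at 24 h, -1.41 at 48 h and -1.60 at 11 days, and whether the one used lies on the gene itself could not be checked.

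The polymerase genes fell at every time. Prim1, the primase subunit that lays the first bases of each new strand, had 10.09, 9.93 and 10.03 in unstimulated cells, 8.73, 8.91 and 8.85 at 12 h and 7.51, 7.64 and 7.80 at 11 days. It had fallen by 1.19 ± 0.09 at 12 h (adjusted p = 1.1e-10) and by 2.37 ± 0.09 at 11 days (adjusted p = 1.22e-17), leaving 19.4% of its first level. Pola1, the polymerase that works with primase, and Pole, the leading strand polymerase, were at -1.61 ± 0.09 and -1.93 ± 0.06 at 11 days (adjusted p = 2.66e-14 and 4.2e-19). Of the strand maturation genes, Lig1, the ligase that joins the lagging strand pieces, was at -1.80 ± 0.08, Rpa2, which coats single-stranded DNA, at -1.28 ± 0.07 and Fen1, the flap nuclease, at -0.97 ± 0.10; all 3 fell at all 4 times.

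Pcna, the ring that holds polymerases on DNA, was the 1 member that passed the test upward at 11 days. It had 12.13, 12.04 and 12.13 in unstimulated cells, 11.48, 11.24 and 11.29 at 12 h, 11.36, 11.35 and 11.50 at 24 h, 11.65, 11.65 and 11.76 at 48 h and 12.33, 12.23 and 12.32 at 11 days. All arrays of the first 48 h lay below the unstimulated ones and all arrays of 11 days just above them; 29.8% of all genes were separated upward at 11 days. The rise of 0.19 ± 0.06 (adjusted p = 0.0134) was small and fragile: after a second quantile normalization it was 0, and without the second unstimulated array or the first array of 11 days its adjusted p was 0.0685 and 0.0511. The loaders of the ring did not do the same. Rfc4 fell to -1.83 ± 0.07 and Rfc3 to -0.84 ± 0.09 at 11 days (adjusted p = 3.65e-18 and 1.75e-08). Pcna has pseudogenes in RefSeq, and positions of the probe sets are not given in the sources used here, so signal from near-identical copies cannot be told from that of Pcna; its probe sets differed by no more than 0.05 and correlated at 0.999 over the arrays.

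Genes that pack and mark new DNA fell too. Uhrf1, which carries DNA methylation over to the new strand, went from 10.43, 10.38 and 10.48 to 9.54, 9.44 and 9.53 at 12 h, 9.14, 9.19 and 9.21 at 48 h and 7.97, 8.10 and 8.35 at 11 days. That is a change of -2.29 ± 0.08 at 11 days (adjusted p = 6.53e-19). Chaf1a and Chaf1b, subunits of the chromatin assembly factor that places histones behind the fork, parted at the end: at 11 days Chaf1a was at -1.40 ± 0.07 and Chaf1b at -1.05 ± 0.06, although Chaf1b had fallen further at 12 h, by 1.04. Slbp, which binds the ends of histone messages, was at -1.46 ± 0.08. Dtl, the adaptor through which a ubiquitin ligase removes Cdt1 in S phase, went from 10.27, 10.23 and 10.32 to 9.16, 9.28 and 9.27 at 12 h and 7.76, 7.92 and 8.10 at 11 days, where it kept 19.7% of its first level.

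Neighbouring gene lists moved with the members. Of 50 other replication genes 46 fell and 1 rose at 12 h, with a median of -0.62, and 46 fell at 11 days, with a median of -1.05; Tipin, a fork protection protein, was at -1.34 at 12 h and Ticrr, needed to fire origins, at -2.43 at 11 days. Of 16 other G1/S regulators 13 fell at 12 h and 12 at 11 days, among them Ccna2, cyclin A, at -1.89, and Tfdp2, a partner of E2F proteins known from red cell precursors, at -3.08; E2f5, a repressor E2F of resting cells, rose by 1.89. Of 16 other nucleotide supply genes 12 fell and 2 rose at 12 h, with Ctps at -1.25, Ppat at -1.22 and Dctd at -1.16. Of the 19 genes of G2 and mitosis 18 fell at 12 h with a median of -0.46, and all 19 fell at 24 h, 48 h and 11 days, with medians of -0.98, -1.14 and -1.90. The 28 replication-dependent histone genes with a probe set of their own had the smallest median change at 12 h among these lists, with 19 fallen and 2 risen at 12 h and 27 fallen at 11 days, and medians of -0.36, -0.66, -0.91 and -1.58 over the 4 times. The members' medians were -0.85, -1.10, -1.07 and -1.61. No test was made of these differences between lists.

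**Figure D3:**
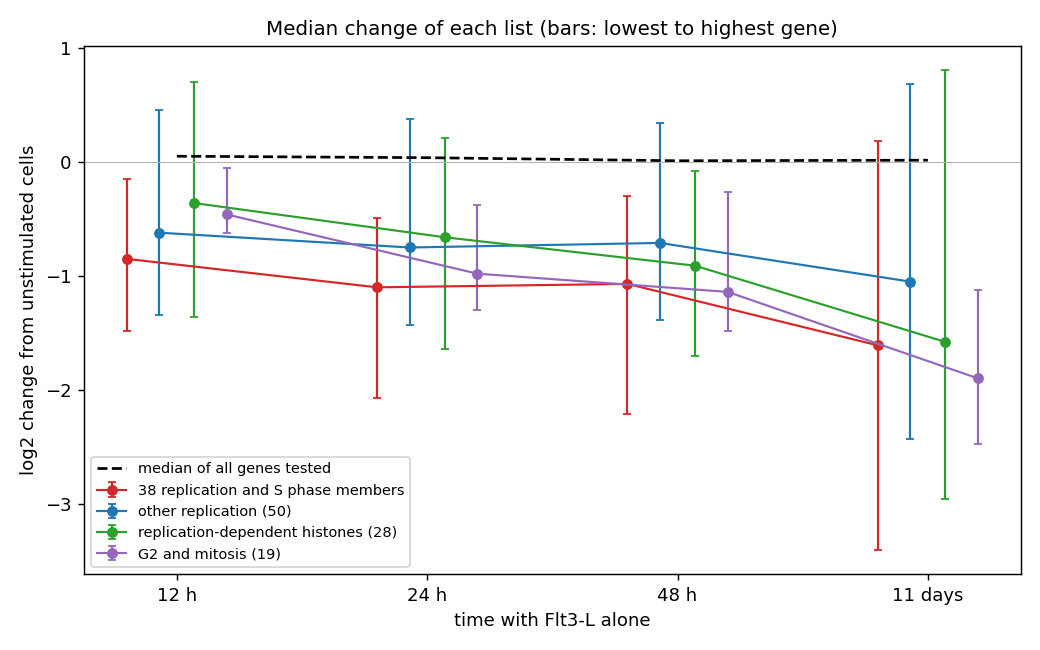
Median log2 change from unstimulated cells over the genes of each list at the 4 times with Flt3-L alone; bars run from the lowest to the highest gene and the dashed line is the median of all genes. The 38 replication genes are lowest at 12 h (-0.85) and nearly flat from 24 h to 48 h, whereas G2 and mitosis genes (-0.46 at 12 h) and histone genes (-0.36) go on falling.

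The make-up of the marrow culture changed over the same days, and in RNA of whole cultures fewer cells of a type and less RNA per cell cannot be told apart. Summed intensity of 11 erythroid markers was 42303 to 46352 in unstimulated cells, 28803 to 32106 at 12 h, 20484 to 22643 at 24 h, 11154 to 12701 at 48 h and 4047 to 4337 at 11 days, with 8 of the 11 lower at 12 h and 10 at 11 days. That of 10 primary granule markers went from 32535 to 34907 down to 26466 to 28114 at 12 h and 6640 to 7330 at 11 days. Of these markers 6 were lower at 12 h, and 8 were lower and 2 higher at 11 days. The 11 early B lineage markers summed to 12733 to 13557 in unstimulated cells, 12551 to 14152 at 12 h and 1745 to 2007 at 11 days, with 2 lower and 2 higher at 12 h and 10 lower at 11 days. The 12 late neutrophil markers summed to 69937 to 71638 at first, 59053 to 64399 at 48 h and 5356 to 5943 at 11 days. Of the 12 stem and progenitor markers 4 were lower and 2 higher at 12 h, and 11 were lower and 1 higher at 11 days. Macrophage markers rose from 7272 to 8229 up to 64978 to 66634 at 11 days, all 12 higher, while at 12 h 7 were higher and 4 lower. Dendritic cell markers rose from 14241 to 14555 up to 30328 to 32196 at 11 days, with 14 of 16 higher and 2 lower. No marker was at 0 on this scale, and the table gives no detection calls. The part of these cell types in the fall of the replication genes was not tested.

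Most of the early fall was done by 12 h. For the median member the change at 12 h was 81.2% of that at 48 h. E2f2 was the exception, with 11.8% of its 48 h change at 12 h, followed by E2f7 with 30.9% and Cdc45 with 51.4%. From 12 h to 24 h with Flt3-L alone, 19 members fell further and none rose, with a median step of -0.20, against 5.52% of all genes falling and 5.59% rising. Orc1 made the largest step, -0.59 ± 0.10 (adjusted p = 0.000211), followed by E2f2 and Cdc6, both at -0.42 (adjusted p = 1.73e-05 and 0.00125), Tk1 at -0.39, E2f8 at -0.38 and Uhrf1 at -0.37. Without the first array of 24 h the count was 12. From 24 h to 48 h few moved: E2f2 by -0.71 ± 0.06 (adjusted p = 4.45e-09), Ccne2 by -0.41 (adjusted p = 0.00575), Rrm2 by -0.23 and Cdc45 by -0.16 downward, and Pcna by 0.28 ± 0.06 upward (adjusted p = 0.00252), against 7.43% and 9.71% of all genes. With the replicate number as a block E2f3 rose as well, by 0.20 (adjusted p = 0.031). Leaving out the second or the third array of 24 h, or the first of 48 h, left 2 members falling in place of 4.

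The second fall came between 48 h and 11 days and split the list. With Flt3-L alone 28 members fell and 3 rose, with 18.8% of all genes falling and 24.2% rising, and 6 fell by 2-fold or more (3.56% of all genes). The arrays of 29 members were wholly lower at 11 days than at 48 h (20.7% of all genes). E2f2 went down by 2.13 (adjusted p = 1.59e-19), E2f8 by 1.38 (adjusted p = 2.36e-13), Dtl by 1.11, Cdc45 by 1.09, Uhrf1 by 1.04 and Rrm2 by 1.03. Pcna rose by 0.60 ± 0.06 (adjusted p = 1.68e-08), E2f1 by 0.59 ± 0.13 (adjusted p = 0.000589) and Gins2 by 0.30 ± 0.06 (adjusted p = 5.35e-05). Cdt1, Ccne1, E2f3, Tk1, Rfc3, Chaf1b and Fen1 did not pass the test in either direction on the probe sets used. On the other probe sets Tk1 fell by 0.19 (adjusted p = 0.0185) and E2f3 rose by 0.21 (adjusted p = 0.0132). Genes of the same machine thus parted, since Cdc45 fell while Gins2 rose.

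The arm with CsA, whose arrays are all different ones, moved in much the same way. From 48 h to 11 days 26 members fell and 3 rose there, with 19.3% and 23.8% of all genes, and the 3 that rose were again E2f1 by 0.82 ± 0.13 (adjusted p = 1.32e-05), Pcna by 0.45 ± 0.06 (adjusted p = 1.78e-06) and Gins2 by 0.22 ± 0.06 (adjusted p = 0.00213). The 26 that fell with CsA were all among the 28 that fell without it, and 7 members passed in neither arm. By sign alone 33 of the 38 moved the same way. No member passed the test in opposite directions on the probe sets used. E2f3 passed in opposite directions on its other probe set, with 0.21 ± 0.07 for Flt3-L alone (adjusted p = 0.0132) and -0.19 ± 0.07 with CsA (adjusted p = 0.026). The steps of the 38 genes correlated at 0.98 between the arms, and those of all 19935 genes at 0.924; genes are not independent replicates. E2f2 again led with -2.02, before E2f8 at -1.41 and Dtl at -1.11. From 12 h to 24 h 25 members fell with CsA (8.23% of all genes, 8.13% rose), Orc1 furthest with -0.87 (adjusted p = 8.64e-07), and 18 of them fell in both arms. After array medians were subtracted 1066 genes rose and 1715 fell in place of 1621 and 1640. Without the second CsA array of 12 h the count was 16 and without the first of 24 h it was 15. From 24 h to 48 h 6 fell, with E2f2 at -0.94 (adjusted p = 3.29e-11) and Ccne2 at -0.49 ahead of E2f7, Rrm2, E2f8 and Cdc45, and Pcna and Cdt1 rose by 0.23 and 0.16 (adjusted p = 0.00894 and 0.0227), against 9.24% and 13.0% of all genes. That count of 2 rising genes was 0 without the first array of either time, 1 without the second and 4 without the third of 48 h.

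**Figure D4:**
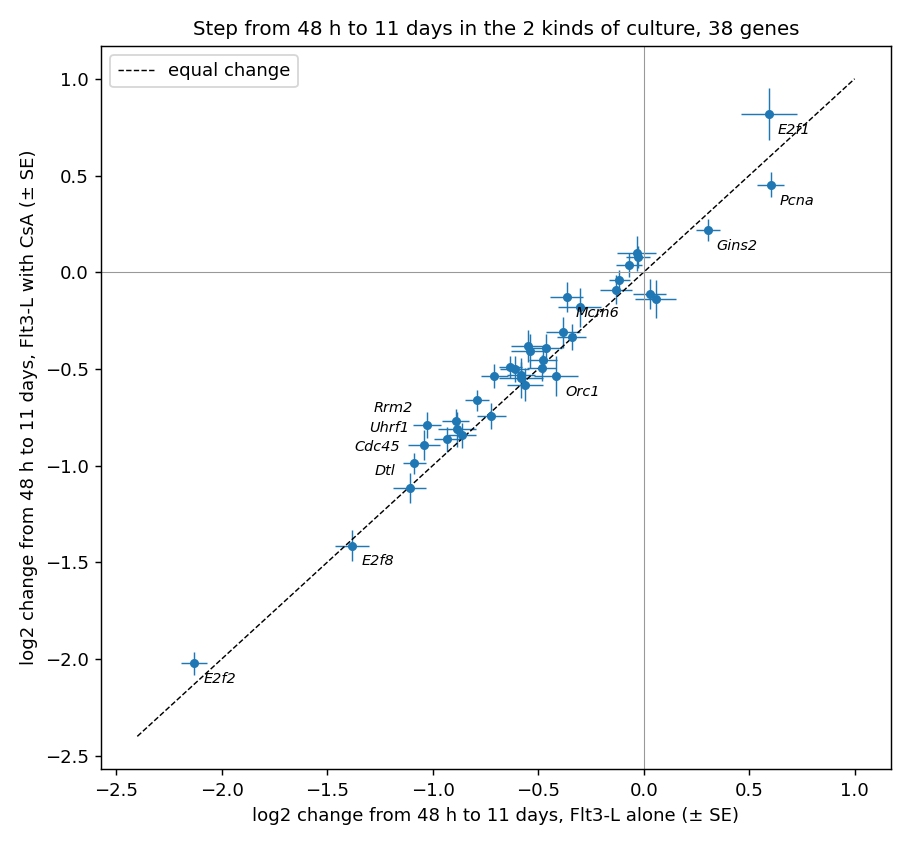
Log2 change from 48 h to 11 days of each of the 38 genes with Flt3-L alone (horizontal axis) and with CsA (vertical axis); bars are standard errors. The genes lie along the diagonal, with E2f2 at -2.13 and -2.02 at one end and Pcna, E2f1 and Gins2 above 0 on both axes at the other.

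Cultures with Flt3-L and CsA were compared with Flt3-L alone at each time. No group had CsA without Flt3-L. An effect of CsA on the response to Flt3-L therefore cannot be told apart from another effect of the drug on the cultured cells. For the replication genes the differences were small: no member differed by more than 0.39 at any time, and the median standard error was 0.068. At 12 h 2 members were higher and none lower with CsA, against 2.82% and 3.91% of all genes. Ccne2 read 9.57, 9.47 and 9.29 with CsA and 9.12, 9.03 and 9.0 without, a difference of 0.39 ± 0.10 (adjusted p = 0.0268), and the groups did not overlap. E2f3 read 8.26, 8.39 and 8.12 against 7.84, 8.11 and 7.97, a difference of 0.29 ± 0.08 (adjusted p = 0.0292) that its other probe set did not show (-0.01). Orc1 was next, at 0.31 ± 0.10 (adjusted p = 0.0704), with 7.65, 7.57 and 7.13 against 7.15, 7.15 and 7.13, so that the third CsA array lay with the controls. Over all genes that array was nearest to the third array of Flt3-L alone at 12 h. Without it 3 members were higher, Ccne2 at 0.47, Orc1 at 0.47 and E2f3 at 0.35 (adjusted p = 0.00995, 0.00271 and 0.0085). Leaving out a CsA array that was low in most members raises the difference by construction, so these values add no support. With array weights 14 were higher and Rpa2 was lower. Without the third array of Flt3-L alone, or the first or second of CsA, none passed.

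Few members passed the test singly at 12 h. By sign, 31 of 38 were above 0, with a median of 0.11. Of all genes 38.5% were above 0, with a median of -0.043. The members were read from the same arrays and are not independent replicates. Counts by sign, here and at the later times, therefore only describe these arrays. Of the members 15 had all CsA arrays above all arrays without CsA (12.0% of all genes) and 2 all below (16.3%). After array medians were subtracted, which moves this comparison by 0.057, 786 genes were higher and 258 lower, in place of 562 and 779, and 649 and 620 after quantile normalization; Ccne2 and E2f3 passed under both. Of the 19 G2 and mitosis genes 5 were higher and 0 lower, with a median of 0.17. Of the 50 other replication genes 8 were higher and 0 lower, among them Mtbp at 0.34, Dbf4 at 0.31 and Clspn at 0.26. Other G1/S regulators had 2 of 16 higher and 0 lower. Other nucleotide supply genes had 2 of 16 higher and 1 lower, with a median of -0.08. Of the 28 histone genes 0 passed the test, with a median of 0.08. The summed erythroid markers were 32551 to 34842 with CsA and 28803 to 32106 without, with none of the 11 past the test. Of the dendritic cell markers 4 of 16 were lower and 1 higher with CsA, with sums of 13039 to 13934 against 14131 to 15667, and 2 of 12 macrophage and 1 of 11 early B lineage markers were lower. The part of these lists in the result was not tested.

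At 24 h E2f7 alone was higher with CsA, with 8.90, 8.97 and 8.88 against 8.63, 8.74 and 8.63, a difference of 0.25 ± 0.06 (adjusted p = 0.00739). It was 1 of 8 members whose CsA arrays all lay above (7.41% of all genes); by the test 1.60% of all genes were higher and 2.19% lower. At 48 h no member passed with limma (1 had an unadjusted p under 0.05), while 2.17% and 2.34% of all genes did, and the largest difference was that of Ccne2, 0.18 ± 0.10 (adjusted p = 0.458). The other probe set of E2f3 was higher at 48 h, by 0.28 (adjusted p = 0.0163). At 48 h 5 members had all CsA arrays above those without CsA (11.7% of all genes) and 1 had all below (7.45%). By sign alone 30 of 38 members were above 0 at 24 h, with 47.1% of all genes. At 48 h it was 24 of 38, with 58.5% of all genes.

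At 11 days 3 members were higher with CsA and none lower, against 4.92% and 7.08% of all genes. Rrm2 read 9.71, 9.61 and 9.60 with CsA and 9.21, 9.49 and 9.43 without, a difference of 0.26 ± 0.07 (adjusted p = 0.00887). Cdt1 read 9.11, 9.27 and 9.19 against 8.98, 8.96 and 9.06, a difference of 0.19 ± 0.05 (adjusted p = 0.0098), and Mcm2 9.49, 9.46 and 9.43 against 9.23, 9.20 and 9.40, a difference of 0.18 ± 0.06 (adjusted p = 0.0345). In all 3 the groups did not overlap, most narrowly in Mcm2, where 9.43 stood against 9.40. In all, 11 members had all CsA arrays above those without CsA (17.2% of all genes) and 1 had all below (12.6%). The lowest member was Pcna, at -0.11 (adjusted p = 0.299). As at 12 h, 31 of 38 were above 0, here with 60.8% of all genes above 0. The count was 7 without the third array of Flt3-L alone, and 1 without the first array of either group. It was 9 after quantile normalization and 1, Rrm2, after array medians were subtracted. Around them at 11 days, 11 of 12 late neutrophil markers were lower with CsA (summed intensity 1950 to 2719 against 5356 to 5943), 12 of 16 dendritic cell markers were lower and 1 higher (20654 to 24615 against 30328 to 32196), 4 of 11 early B lineage markers were lower (854 to 886 against 1745 to 2007), and of the erythroid markers 1 was higher and 2 lower, with a sum of 4913 to 5502 against 4047 to 4337; the part of these in the differences was not tested. Of the 50 other replication genes 0 were higher and 2 lower with CsA at 11 days, with a median of 0.04. Of the 19 G2 and mitosis genes 2 were higher and 1 lower, and of the 28 histone genes 5 were higher and 0 lower. Over the 4 times 14 of the 38 members (36.8%) were above 0 each time, as were 11.1% of all genes. None of the members was below 0 each time, and 32 were never called.

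**Figure D5:**
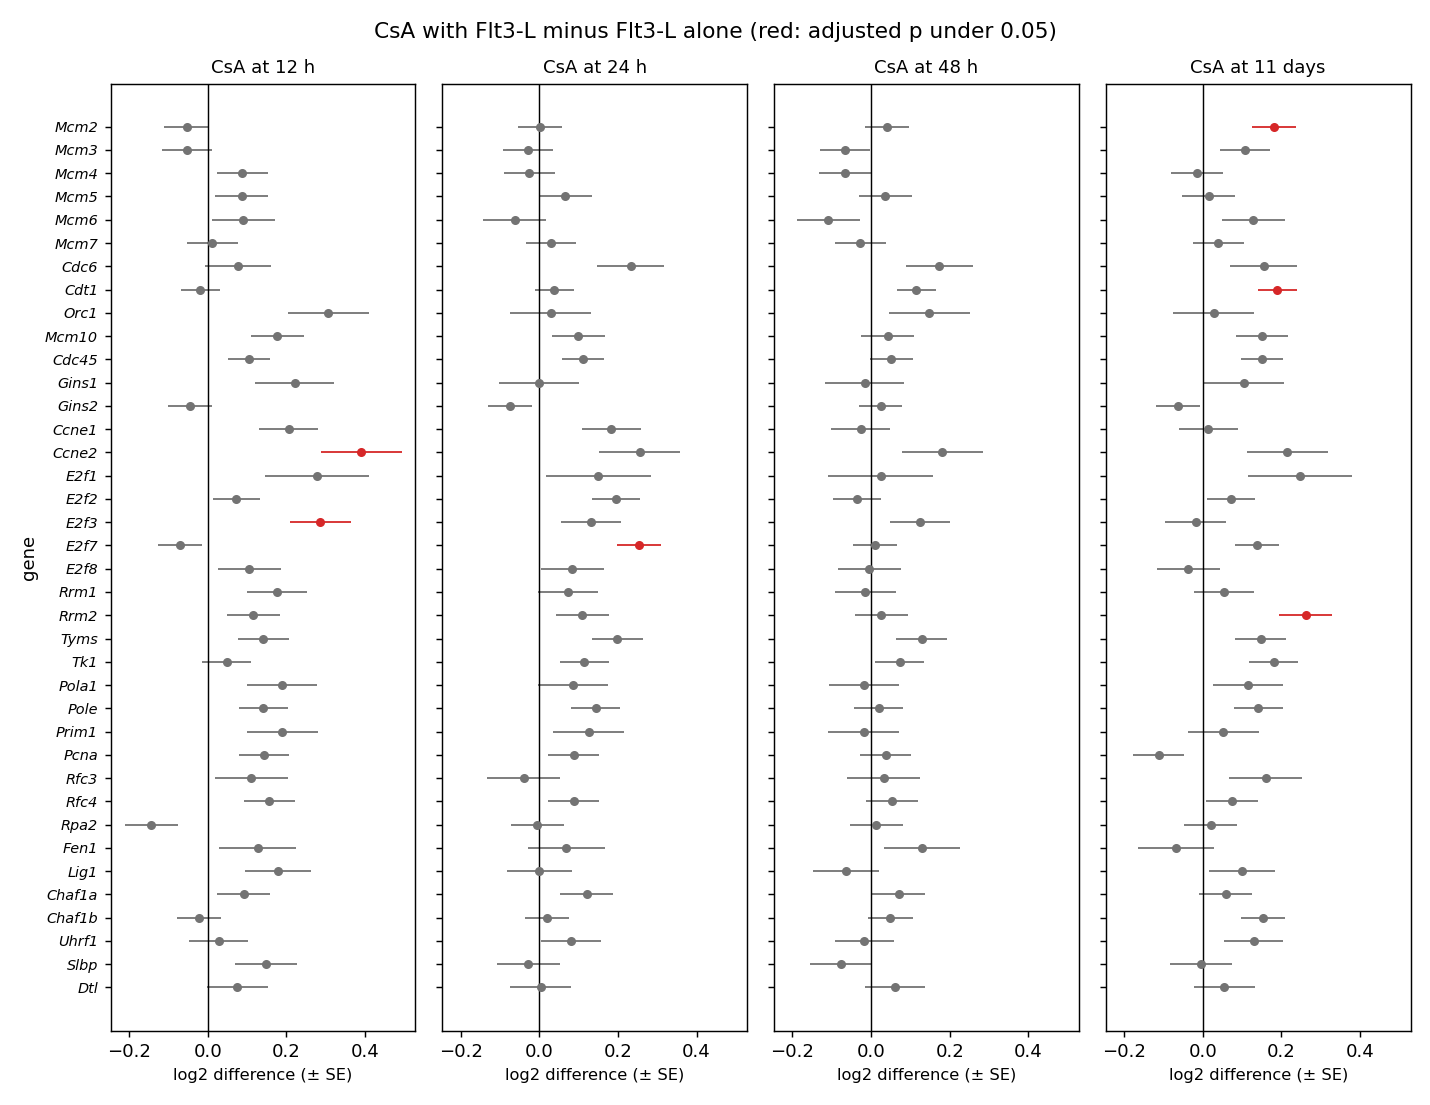
Log2 difference between Flt3-L with CsA and Flt3-L alone for each of the 38 genes at the 4 times; bars are standard errors and red points pass the adjusted threshold. All points lie between -0.14 and 0.39, and the 6 red ones are Ccne2 and E2f3 at 12 h, E2f7 at 24 h and Rrm2, Cdt1 and Mcm2 at 11 days.

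Whether the CsA difference changed from one time to the next was tested directly. None of the 38 passed with limma between 12 h and 24 h, 24 h and 48 h, or 48 h and 11 days, where 1, 2 and 2 members had an unadjusted p under 0.05. Among all genes 0.0351% and 0.0853% rose and fell in the first of these tests (7 and 17 genes, and 1 and 15 after array medians were subtracted), 0 and 0.0150% in the second and 2.31% and 4.65% in the third. The largest change of a member was that of E2f7 from 12 h to 24 h, 0.32 (adjusted p = 0.115), which passed after quantile normalization (adjusted p = 0.0247). The median standard error of these changes was 0.096.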

How the data were processed

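The authors deposited 1 table of linear signal intensities per probe set for 27 arrays, made with RMA per the submitters' processing notes (version not given in the sources used here); amplification used a whole-transcript kit per the labels' protocols. RMA had already normalized the arrays against each other, so a shift common to all genes would not show. Of 28815 probe sets 21780 carried 1 gene symbol, 1605 several and 5430 none. Deposited intensities were put on the log2 scale with no offset and fitted with limma 3.58.1 (R 4.3.3) as 9 group means over all 27 arrays, for 17 comparisons, with Benjamini-Hochberg adjustment over 19935 genes in each; n is 3 arrays per group throughout. P-values weigh a difference of group means against the spread between replicates within the 9 groups, as moderated by limma. Members and lists were chosen with earlier results of these data known. In each comparison up to 6 called members with the largest change are named, plus those that went against the majority. Same-numbered arrays deviated together (each correlation over 0.1) in 5 of 14 comparisons, among them Flt3-L alone from 24 h to 48 h (0.459, 0.446 and 0.405). For CsA at 24 h the same-numbered pairs had 0.369, 0.346 and 0.398, and no pair of unlike number was above -0.062. In others of the 5 a pair of unlike number correlated more than a same-numbered pair. It was 0.174 against 0.126 for Flt3-L 24 h against unstimulated, and 0.233 against 0.178 for CsA at 48 h. Alternatives covered variance model, array weights, dim genes, scaling, offset, probe set choice, samples in the fit, the block and single arrays left out. The fit was tested on simulated data for CsA at 48 h. It recovered 22% of genes changed by 0.25 in log2 and 96% of those changed by 0.5. A member that did not pass may therefore still differ by a small amount.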

Additional observations from a re-analysis of the deposited data

How the results depend on the processing

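With unstimulated cells as reference the counts of members that fell stayed within 36 to 37 at 12 h and at 38, 38 and 36 at the later times when any 1 array was left out, and within 1.5 times under the other settings. The single riser at 11 days, Pcna, was lost after quantile normalization (0 members, log2 change 0, adjusted p = 1.0), and ranged from 0 to 1 over arrays left out. E2f1 at 11 days turned to -0.0058 (adjusted p = 0.982) without the third array of 11 days and was 0.25 without the second. On its other probe set E2f3 turned to 0.14 at 11 days (adjusted p = 0.0843) and to -0.0087 with CsA at 12 h (adjusted p = 0.946).

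The CsA counts depend on the setting. Members higher at 12 h, 2 in the fit reported, were 14 with array weights (and 1 lower in place of 0), 1 when a gene's probe sets were averaged or the other one was used, 0 with only the compared groups fitted, and 0 to 3 with 1 array left out. At 24 h the 1 became 2 with trended and robust variance, array weights, no dim genes, quantile normalization or an offset of 16, 0 with only the compared groups, and 1 to 2 with 1 array left out. At 48 h the 0 became 1 on the other probe set. At 11 days the 3 became 5 with array weights or without dim genes, 9 with quantile normalization, 1 with medians subtracted, 0 with only the compared groups, and 1 to 7 with 1 array left out. For changes of the CsA difference the 0 became 1 higher from 12 h to 24 h with quantile normalization, and 1 lower from 48 h to 11 days on the other probe set of E2f3 (-0.40, adjusted p = 0.0089).

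Among the steps with Flt3-L alone, the count falling from 12 h to 24 h was 12 to 17 with 1 array left out against 19. From 24 h to 48 h the 1 riser became 2 with array weights or with the replicate block, and 1 to 2 with arrays left out, and the 4 that fell became 2 with medians subtracted and 2 to 4 with arrays left out. From 48 h to 11 days 27 to 30 fell. With CsA the 25 that fell from 12 h to 24 h became 15 with only the compared groups, and 15 to 26 with arrays left out. The 2 risers from 24 h to 48 h became 4 with trended and robust variance, 5 without dim genes or with the offset, 1 with array weights or medians subtracted, 0 with only the compared groups, and 0 to 4 with arrays left out, and 5 to 6 fell. The replicate block moved no other count of members by over 1.5 times. The share of promoters with E2F letters was 48.48% with 2 motifs in place of 69.7%. Fitting only the compared groups leaves fewer samples to estimate the spread; of the other changes the cause was not tested. The number of arrays, 3 per group, limits the precision of every difference.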
